A study of Mus musculus with 72 samples.

Results

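Collagens are the trimeric proteins of the extracellular matrix, and each chain is encoded by its own gene. The genes described here are every listed row whose symbol reads COL, a number, A and a number, which gave 43 collagen chain genes of 16835 listed genes. RNA was sequenced from BALB/c mice that all bore tumors of CT26, a colon carcinoma cell line of that strain. Tumors, spleens and tumor-draining lymph nodes were taken at study day 23, and further tumor-draining lymph nodes at day 16. The 6 arms were Isotype, the single arms PD1 and CYTO, their combination PD1/CYTO, and the same with TS added to CYTO, named TS/CYTO, or to both, named TS/PD1/CYTO, with 3 mice in each arm, tissue and day, which made 72 libraries in 24 groups. The labels do not spell out what CYTO and TS stand for, and there were no mice without a tumor. A mouse is named here by its arm and number. The deposited values are log2(TPM + 1), where TPM is an abundance corrected for transcript length and scaled to a fixed total per library, so levels can be compared between genes. The lowest value in the table was 0.01, which is called the floor here. TPM keeps no read number, so sequencing depth is unknown and precision comes from the spread between mice.

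Fibrillar collagens (types I, II, III, V, XI, XXIV and XXVII) form the cable-like fibrils of connective tissue, and type I is built from chains of COL1A1 and COL1A2. Type IV forms the sheet of basement membranes under endothelium and epithelium, type VI forms beaded filaments, and fibril-associated collagens such as XII, XIV and XVI sit on or beside fibrils. In lymph nodes and spleen, fibroblastic reticular cells lay down a network of collagen-rich conduits, and in tumors fibroblasts are usually the main source of fibrillar chains.

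COL4A1 and COL4A2 are a head-to-head pair whose RNA levels varied closely together in each tissue, and COL1A2 and COL16A1 were among the chains that stood high in tumors. Their promoter windows are shown for that reason, each from 250 bases before to 50 bases after the RefSeq start site on GRCm38.p6 and 5′ to 3′ on the gene's strand. Capitals mark the CCAAT box (CCAAT, or ATTGG when it lies on the opposite strand) and the GC box (GGGCGG, or CCGCCC on the opposite strand).
COL4A1, chr8:11312777-11313076, minus strand: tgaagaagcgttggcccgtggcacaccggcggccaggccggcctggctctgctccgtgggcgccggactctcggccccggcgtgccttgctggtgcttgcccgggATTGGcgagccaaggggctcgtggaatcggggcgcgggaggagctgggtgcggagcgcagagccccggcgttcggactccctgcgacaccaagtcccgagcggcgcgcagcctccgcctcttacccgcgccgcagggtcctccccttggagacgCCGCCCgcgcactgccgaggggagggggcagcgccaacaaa
COL4A2, chr8:11312555-11312854, plus strand: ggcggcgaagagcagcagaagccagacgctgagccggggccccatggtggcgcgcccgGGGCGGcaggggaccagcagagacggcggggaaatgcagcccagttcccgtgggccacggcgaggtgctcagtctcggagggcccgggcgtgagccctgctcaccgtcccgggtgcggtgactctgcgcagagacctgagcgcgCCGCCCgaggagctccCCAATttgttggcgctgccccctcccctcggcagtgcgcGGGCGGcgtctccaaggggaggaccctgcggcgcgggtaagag
COL1A2, chr6:4505368-4505667, plus strand: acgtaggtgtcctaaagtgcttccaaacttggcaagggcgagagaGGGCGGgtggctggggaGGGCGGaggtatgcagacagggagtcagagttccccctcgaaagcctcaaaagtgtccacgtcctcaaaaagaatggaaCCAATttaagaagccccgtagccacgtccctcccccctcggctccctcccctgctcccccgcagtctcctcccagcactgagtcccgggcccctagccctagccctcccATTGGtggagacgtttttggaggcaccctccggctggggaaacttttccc
COL16A1, chr4:130047590-130047889, plus strand: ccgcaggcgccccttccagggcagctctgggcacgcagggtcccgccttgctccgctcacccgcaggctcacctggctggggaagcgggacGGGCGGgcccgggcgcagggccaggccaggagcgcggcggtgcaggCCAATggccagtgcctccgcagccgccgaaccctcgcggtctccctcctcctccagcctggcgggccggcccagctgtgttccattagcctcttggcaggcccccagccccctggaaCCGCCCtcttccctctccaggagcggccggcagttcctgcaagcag
The start sites of COL4A1 and COL4A2 lay 21 bases apart on opposite strands, and their windows shared 78 bases. These windows held 1, 1, 2 and 1 CCAAT boxes and 1, 3, 2 and 2 GC boxes in the order printed, with GC contents of 74.0%, 73.7%, 61.0% and 74.3%. Of all 32851 RefSeq windows of this length, 37.4% held a CCAAT box and 35.7% a GC box on either strand. Windows were found for 34 of the 43 collagen genes, of which 12 held a CCAAT box and 21 a GC box. A match of letters is a description and not a binding site.

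Some libraries stood apart. Summed TPM of 8 T and B cell markers ran from 1775 to 2831 in 15 day 16 nodes and from 1514 to 2665 in day 23 nodes, against 0.802 to 57.4 in tumors. Node PD1/CYTO 22 of day 16 had a mean correlation of 0.957 with the tumors and 0.684 with the other nodes. Its T and B cell marker sum was 31.2, with COL8A1 at 5.74 and COL14A1 at 2.28 on the log2(TPM + 1) scale, values of the tumors rather than of the tissue on its label. Day 16 nodes PD1 16 and TS/PD1/CYTO 34 had summed TPM of 6 adipocyte markers of 28210 and 18580, against 223.7 to 8979 in the other 15, and T and B cell marker sums of 155.3 and 79.3. Node TS/PD1/CYTO 34 also had summed TPM of skeletal muscle markers of 18550, against 0.55 to 25.5 in all other day 16 nodes. The parts of fat and muscle in its collagen levels were not tested. Results that rest on day 16 nodes are therefore given with and without these 3. Spleens Isotype 09, PD1 29 and TS/CYTO 48 had summed TPM of 8 exocrine pancreas markers of 8569, 7524 and 8732, against 16.9 to 687.2 in the other spleens. Of the tumors, 14 were kept in RNAlater and processed as batch 3, and 4 were fresh-frozen and processed as batch 2 (Isotype 01, CYTO 12, PD1/CYTO 32 and TS/PD1/CYTO 52). All nodes were batch 2 and all spleens batch 4, and both were kept in RNAlater. The listed genes held 408900 to 596100 TPM per spleen but 762300 to 864700 per tumor or node.

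Which collagen chains were above the floor differed by tissue. In tumors 16 of the 43 genes were above the floor in all 18 libraries, 8 in some and 19 in none. In spleens the numbers were 13, 8 and 22. In day 23 nodes they were 22, 12 and 9, and in day 16 nodes 19, 16 and 8. Nodes also had more genes of any kind above the floor. Of all listed genes, 9765 to 10927 were above it per tumor, 9918 to 11075 per spleen and 11301 to 12119 per day 23 node. Over all 72 libraries, 11 collagen genes were above the floor everywhere, 25 in some and 7 in none. The 7 were COL2A1, the cartilage fibril chain, the basement membrane chains COL4A3, COL4A4 and COL4A6, and COL19A1, COL22A1 and COL25A1. COL24A1, a minor fibrillar chain, was above the floor in 1 library.

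The summed TPM of all collagen genes was lowest in spleens. It ran from 56.8 to 240.2 with a median of 120.6 in spleens, from 295.1 to 1617 with a median of 765.1 in tumors, and from 570.3 to 1945 with a median of 754.5 in day 23 nodes. No spleen reached the lowest tumor or the lowest day 23 node, while tumors and nodes overlapped over most of their ranges. Listed genes held less of the TPM in spleens, so the sum was also taken as a percent of listed TPM, which ran from 0.0126% to 0.0422% in spleens, from 0.0353% to 0.189% in tumors and from 0.0715% to 0.237% in day 23 nodes. On that scale 4 of 18 spleens exceeded the lowest tumor, Isotype 01, and 0 exceeded the lowest day 23 node. Day 16 nodes ran from 536.8 to 5934 with a median of 957.8, and the highest were nodes PD1 16 at 5934 and TS/PD1/CYTO 34 at 3117, outside the range of 536.8 to 1758 of the 15 others. In bulk tissue, fewer cells of a type and less RNA per cell cannot be told apart.

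**Figure D1:**
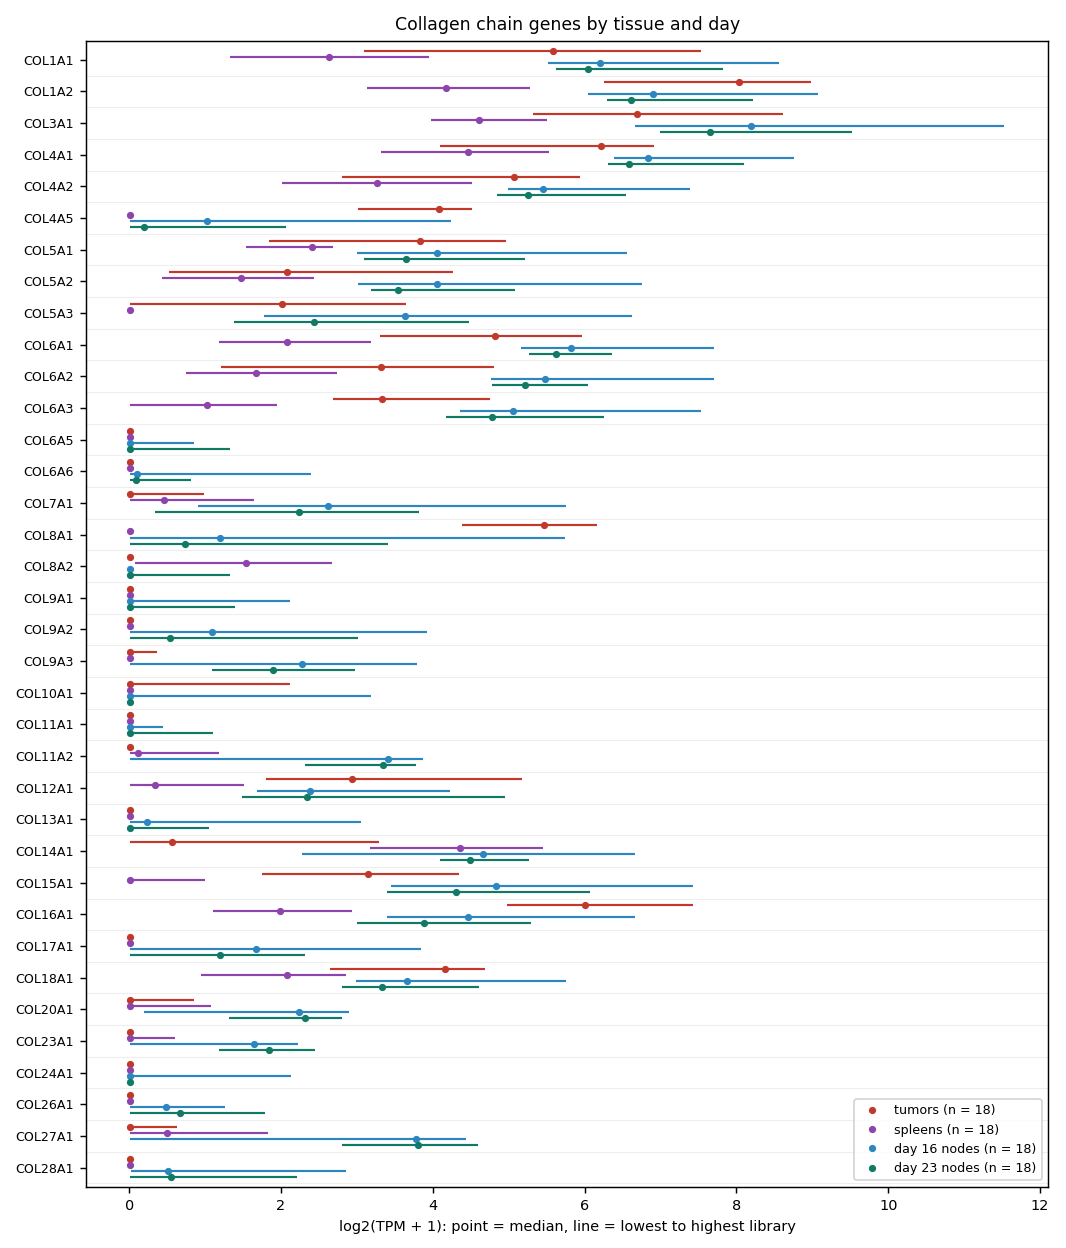
Levels of the 36 collagen genes above the floor in at least 1 library, as log2(TPM + 1) on the horizontal axis, with the median of 18 libraries as a point and a line from the lowest to the highest library for each tissue and day. COL8A1, COL4A5 and COL16A1 sat highest in tumors, COL8A2 was above the floor in all spleens, and COL11A2 and COL27A1 were high in nodes and near the floor in tumors.

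A fibrillar chain had the highest median TPM in each tissue, but the order of the chains differed. In tumors COL1A2, the second chain of type I, had the highest median TPM at 261.4, or 33.8% of collagen TPM. COL3A1, the chain of the thinner type III fibrils, followed at 102.6 TPM, COL4A1 at 73.6, COL16A1 at 63.5, COL1A1 at 47.3 and COL8A1 at 43.2. In day 23 nodes COL3A1 led at 200.8 TPM, 28.2% of collagen TPM, followed by COL1A2 at 96.3, COL4A1 at 95.1, COL1A1 at 65.3 and COL6A1 at 48.5. In day 16 nodes the first 3 were the same, at 292.3, 118.8 and 113.2 TPM. In spleens COL3A1 at 23.3 TPM, COL4A1 at 21.2, COL14A1 at 19.6 and COL1A2 at 17.1 lay within each other's ranges.

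Of the fibrillar chains, COL1A1 was 5.52 ± 0.98 in tumors, 2.70 ± 0.73 in spleens, 6.18 ± 0.56 in day 23 nodes and 6.47 ± 0.74 in day 16 nodes on the log2(TPM + 1) scale (mean ± SD, n = 18 libraries each). COL1A2 was 7.99 ± 0.66, 4.17 ± 0.66, 6.78 ± 0.51 and 7.15 ± 0.85 in the same order and on the same scale. COL3A1 was 6.79 ± 0.93, 4.68 ± 0.45, 7.90 ± 0.84 and 8.30 ± 1.15. COL1A2 was thus the only chain of these 3 with its highest mean in tumors. COL5A1, which helps to start type I fibrils, was 3.76 ± 0.77, 2.31 ± 0.31, 3.79 ± 0.59 and 4.25 ± 0.94.

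Of the basement membrane chains, COL4A1 was 6.06 ± 0.72 in tumors, 4.48 ± 0.64 in spleens, 6.76 ± 0.50 in day 23 nodes and 7.04 ± 0.63 in day 16 nodes on that scale. COL4A2, its partner in the common type IV trimer, was 4.96 ± 0.78, 3.27 ± 0.71, 5.38 ± 0.46 and 5.68 ± 0.66. COL6A1 of the beaded filaments was 4.85 ± 0.58, 2.09 ± 0.63, 5.67 ± 0.33 and 5.97 ± 0.62. COL15A1 and COL18A1 are the multiplexins of basement membrane zones. COL15A1 was 3.20 ± 0.65, 0.24 ± 0.37, 4.45 ± 0.62 and 4.99 ± 0.98, and COL18A1 was 4.11 ± 0.52, 1.98 ± 0.63, 3.40 ± 0.47 and 3.89 ± 0.77. The fibril-associated COL12A1 was 3.09 ± 0.91, 0.51 ± 0.47, 2.48 ± 0.77 and 2.59 ± 0.69.

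Tumors were set against nodes of the same day to ask which chains the tumors carried relative to the lymphoid tissue draining them. Levels were compared with limma over all genes, as the mean over the 6 arms, with a threshold of 5% on the adjusted p. Of 34 collagen genes tested, 7 were higher in tumors and 24 lower, where 27.7% of all 12761 genes tested were higher and 57.9% lower. The median difference was -0.66 over the collagen genes and -0.43 over all genes.

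The short-chain collagen COL8A1, a product of vessel wall and mesenchymal cells, ran from 4.39 to 6.16 with a median of 5.46 in tumors and from 0.01 to 3.41 with a median of 0.73 in day 23 nodes. Every tumor lay above every day 23 node, and the difference was 4.47 ± 0.22 (SE, adjusted p = 6.389e-22). COL4A5, a chain of specialised basement membranes, ran from 3.02 to 4.52 in tumors and from 0.01 to 2.06 in day 23 nodes, again without overlap, and was 3.61 ± 0.13 higher. COL16A1 ran from 4.98 to 7.43 in tumors and from 3.00 to 5.30 in day 23 nodes, with a small overlap, and was 2.18 ± 0.19 higher. COL1A2 was 1.21 ± 0.18 higher, COL18A1 0.71 ± 0.17 and COL12A1 0.61 ± 0.21. COL10A1, the chain of hypertrophic cartilage, was above the floor in 7 of 18 tumors and in no day 23 node.

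The lower chains were led by COL27A1, COL14A1 and COL11A2. COL27A1, a fibrillar chain, was above the floor in 1 of 18 tumors and ran from 2.81 to 4.59 in day 23 nodes, a difference of -3.75 ± 0.13. COL14A1, which binds fibrils in soft connective tissue, ran from 0.01 to 3.29 with a median of 0.56 in tumors and from 4.10 to 5.27 in day 23 nodes, with no overlap, and was -3.71 ± 0.23 in tumors minus nodes. COL11A2, a fibrillar chain best known from cartilage, and COL23A1, a transmembrane collagen, were listed at the floor in every tumor, and ran from 2.32 to 3.78 and from 1.18 to 2.45 in day 23 nodes. The type VI chains were all lower, with COL6A2 at -2.03 ± 0.20. COL20A1 (-2.07), COL7A1 of anchoring fibrils (-1.89) and COL9A3 of cartilage fibrils (-1.86) followed. COL3A1 was lower by 1.10 ± 0.24 on this scale. COL5A1 at -0.03 ± 0.20, COL8A2 and COL9A1 did not pass the test.

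Batch and tissue were confounded for the 14 tumors of batch 3, which shared no batch with any node. The 4 fresh-frozen tumors were therefore also compared with day 23 nodes of their own batch and arms (Isotype, CYTO, PD1/CYTO and TS/PD1/CYTO). Those nodes were kept in RNAlater, so within batch 2 preservation and tissue cannot be told apart. There 24 of 32 collagen genes passed, 3 higher and 21 lower, where 83.7% of all genes passed in either direction. The 3 were COL8A1 at 4.18 ± 0.51, COL4A5 at 3.67 ± 0.23 and COL16A1 at 1.84 ± 0.27, whereas COL1A2 at 0.51 ± 0.28 (adjusted p = 0.1031), COL12A1 at 0.46 ± 0.39 and COL18A1 at 0.11 ± 0.25 did not pass. COL14A1 was -4.38 ± 0.16 there and COL1A1 -1.49 ± 0.33. With the mouse as replicate block, 4 of the weaker calls were lost, namely COL1A1 at -0.48 (adjusted p = 0.0634), COL4A2 at -0.21, COL5A3 at -0.41 and COL6A5 at -0.14. Quantile normalization moved the median of all genes to -0.01, with 5425 genes higher and 5506 lower, and left 8 collagen genes higher and 20 lower. COL4A2 (0.02) and COL5A3 (0.29) then changed sign without passing the test, and COL5A1 was called higher at 0.63.

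Markers of the cells around the chains moved too. All 8 endothelial, 8 of 8 T and B cell and 7 of 9 fibroblast markers were lower in tumors than in nodes, with medians of -2.50, -7.02 and -1.68. Summed fibroblast markers ran from 187.3 to 555.1 TPM in tumors and from 564.2 to 1282 in day 23 nodes, and summed endothelial markers from 17.96 to 101.2 and from 183.7 to 443.0. Their part in the collagen differences was not tested.

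The genes that process collagen did not all follow the chains. Of 20 genes that modify or fold chains in the cell, 12 were higher in tumors than nodes and 7 lower, among them P3H4 at 2.54, P4HA1, a proline hydroxylase subunit, at 1.76 and P4HB at 0.99, and TMEM38B at -2.30. Of 10 tested genes for procollagen cleavage and cross-linking, 4 were higher and 4 lower. Their leading members were the cross-linking enzymes LOXL4 at 3.13 and LOXL3 at 2.77, and PCOLCE, an enhancer of procollagen cleavage, at 2.55. Other matrix proteins were higher in 7 of 18 and lower in 10, collagen degradation genes higher in 4 of 13 and lower in 6, and collagen receptors higher in 3 of 9 and lower in 5. TIMP1, an inhibitor of matrix metalloproteinases, was 6.14 higher and the collagenase MMP13 3.40 higher, while FAP was -3.25.

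Against spleens, tumors held more COL16A1 and type I chains and less COL14A1. All spleens were batch 4 and no tumor was, so batch and tissue cannot be told apart in this contrast. Of 34 collagen genes, 18 were higher in tumors and 5 lower, where 53.3% of all genes were higher and 24.8% lower, so the count of higher chains was near the background, with medians of 0.49 over the collagen genes and 0.32 over all. COL16A1 ran from 1.10 to 2.94 in spleens, below every tumor, and was 4.21 ± 0.19 higher in tumors. COL1A2 was 3.82 ± 0.18 higher, COL15A1 2.95 ± 0.18, COL1A1 2.82 ± 0.24, COL6A1 2.77 ± 0.17 and COL12A1 2.59 ± 0.21. COL8A1, COL4A5 and COL5A3 were listed at the floor in every spleen. Going the other way, COL14A1 ran from 3.17 to 5.45 in spleens and was 3.46 ± 0.23 lower in tumors on this scale. COL8A2, a chain known from corneal basement membrane, ran from 0.07 to 2.67 in spleens and was listed at the floor in every tumor. COL27A1 (-0.62), COL11A2 (-0.32) and COL23A1 (-0.15) were also lower. The call on COL23A1 was lost with the mouse as replicate block (-0.10, adjusted p = 0.3007).

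Processing genes ran with the tumor side in this contrast, 17 of 20 being higher and 2 lower, including P4HA2 at 4.10 and the collagen chaperone SERPINH1 at 3.23. Cleavage and cross-linking genes were 8 higher and 1 lower, other matrix proteins 14 and 2, degradation genes 8 and 2, and receptors 4 and 4. When the listed TPM were rescaled to a common total, the median of all genes moved from 0.32 to -0.07. Then 17 collagen genes were higher and 6 lower, counts given without their share of all genes and not read further. COL5A2, at 0.74 in the deposited values, was 0.28 and did not pass after rescaling, and COL7A1 passed as lower at -0.60.

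Spleens held less of nearly every chain than nodes, as of most genes tested. Only COL8A2 was higher, by 1.41 ± 0.16, and 30 of 34 collagen genes were lower. Of all genes 9.1% were higher and 79.7% lower, so the count of lower chains was near the background. The medians were -1.79 over the collagen genes and -0.92 over all genes. Spleens were all batch 4 and nodes all batch 2, so batch and tissue cannot be told apart here either. COL15A1, above the floor in 7 of 18 spleens, was -4.21 ± 0.18, and COL6A3, COL6A2 and COL6A1 were -3.97, -3.62 and -3.58. COL1A1 was -3.48, COL3A1 -3.21 and COL27A1 -3.13. COL14A1 did not pass at -0.25 ± 0.23 (adjusted p = 0.2837), with 3.17 to 5.45 in spleens and 4.10 to 5.27 in day 23 nodes. After quantile normalization, which moved the median of all genes to -0.07, COL14A1 was called higher in spleens at 0.73. Then 2 collagen genes were higher and 28 lower, counts given without their share of all genes and not read further. Processing genes were 1 higher and 19 lower, other matrix proteins 18 lower of 18, cleavage genes 8 lower, degradation genes 1 higher and 10 lower, and receptors 1 higher and 6 lower.

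Ratios between chains of the same collagen type compare their RNA levels within a library and do not depend on its total TPM. They do not show which chain was in excess as protein. The ratio of COL1A2 to COL1A1 in TPM ran on the log2 scale from 1.37 to 3.32 in tumors, with a median ratio of 6.47, and from 1.36 to 2.36 in spleens, with a median ratio of 2.99. In day 23 nodes it ran from 0.40 to 0.75, with a median ratio of 1.56, and in 15 day 16 nodes from 0.43 to 0.75, with a median ratio of 1.52. No tumor or spleen lay inside the range of those nodes, and node PD1/CYTO 22 lay among the tumors at 1.91.

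COL4A2 to COL4A1 differed less, with median ratios of 0.476 in tumors, 0.407 in spleens and 0.380 in day 23 nodes. COL6A2 to COL6A1 was 0.291 in tumors, 0.679 in spleens and 0.777 in day 23 nodes. COL5A2 to COL5A1 was 0.226 in tumors, 0.427 in spleens and 0.996 in day 23 nodes. COL16A1 exceeded COL1A1 in 14 of 18 tumors and in no other library. These ratios are descriptions and were not tested.

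**Figure D2:**
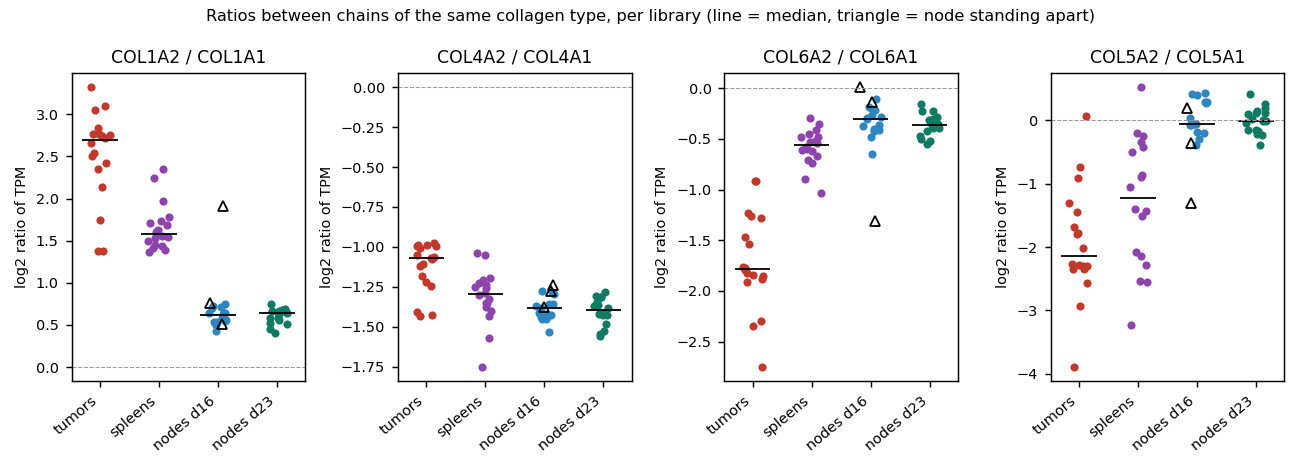
Log2 ratio of TPM between chains of 1 collagen type in each library, by tissue and day, with the median as a line, the 3 day 16 nodes that stand apart as triangles and equality as a dashed line. For COL1A2 over COL1A1 tumors and spleens lie at or above 1.36 on the log2 scale, and day 23 nodes at or below 0.75.

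Within a tissue, chains of the same trimer varied together from mouse to mouse. So did COL1A1 and COL4A1, chains of different collagen types, though less firmly in tumors. 7 pairs in each of 4 sets of libraries made 28 relations, tested by 100000 permutations and adjusted over the 28. COL4A1 and COL4A2 had Pearson's r of 0.984 in tumors, 0.987 in spleens, 0.989 in day 23 nodes and 0.994 in day 16 nodes (n = 18 each), with Spearman's rho of 0.961, 0.973, 0.970 and 0.958. Each permutation p was 1e-05, the smallest these permutations can give, with adjusted values of 1.75e-05 for r and 2.545e-05 for rho. Without the 2 libraries farthest from the median of COL4A1, r was 0.960, 0.981, 0.964 and 0.984, and within the 14 RNAlater tumors it was 0.959. Without the 3 day 16 nodes that stand apart r was 0.980.

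COL1A1 and COL1A2 had r of 0.865 in tumors (rho 0.706, permutation p = 2e-05 and 0.00129, adjusted 2.947e-05 and 0.00172), 0.968 in spleens, 0.991 in day 23 nodes and 0.929 in day 16 nodes. Without the 2 farthest tumors r was 0.723, and within the RNAlater tumors 0.758. Without the 3 day 16 nodes it was 0.982. COL1A1 and COL3A1 had r of 0.789 in tumors (rho 0.777, permutation p = 9e-05 and 0.00029) and 0.901 within the RNAlater tumors. COL6A1 and COL6A2 had r of 0.878 in tumors (rho 0.634), 0.991 in spleens, 0.978 in day 23 nodes and 0.938 in day 16 nodes. COL1A1 and COL4A1, chains of different collagen types, had r of 0.720 in tumors (rho 0.473), 0.964 in spleens, 0.792 in day 23 nodes and 0.948 in day 16 nodes. Without the 2 farthest tumors their r was 0.417, and within the RNAlater tumors 0.421. Their rank relation in tumors did not pass after adjustment (permutation p = 0.04992, adjusted 0.05177).

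COL4A1 was also set against PECAM1, a surface protein of endothelial cells. Their r was 0.850 in tumors (rho 0.768, permutation p = 5e-05 and 0.00039, adjusted 6.364e-05 and 0.000546), 0.637 without the 2 farthest tumors and 0.615 within the RNAlater tumors. It was 0.839 in spleens and 0.595 in day 23 nodes (rho 0.588, permutation p = 0.01073 and 0.01206, adjusted 0.01113 and 0.01299). In day 16 nodes r was -0.137 (rho -0.100, permutation p = 0.5137 and 0.6924) and -0.181 without the 3 that stand apart, so no relation was detectable there. COL1A1 and PDGFRB, a receptor of fibroblasts and pericytes, had r of 0.728 in tumors, 0.920 in spleens, 0.819 in day 23 nodes and 0.882 in day 16 nodes. The tumor value was 0.53 without the 2 farthest tumors and 0.46 within the RNAlater tumors. The day 16 value rested on a few nodes, being 0.625 without the 3 that stand apart and 0.282 when the 2 farthest of the remainder were also left out.

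Tumor volume differed between the mice, from 180.8 to 2198 mm3 in the 18 with a tumor library, which allowed collagen levels to be set against it as a slope per doubling of volume with the batch as a further term. Of 22 collagen genes tested in tumors, 1 passed and was lower in larger tumors, where 11% of all genes passed, 30 rising and 1166 falling. The median slope was -0.16 over the collagen genes and -0.12 over all genes.

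COL12A1, which bridges fibrils and the surrounding matrix, ran from 1.80 to 5.18 with a median of 2.94. Its 3 highest tumors were TS/PD1/CYTO 60 at 5.18 with a volume of 320.9 mm3, PD1/CYTO 38 at 4.68 with 294.4 mm3 and PD1/CYTO 39 at 4.43 with 701.7 mm3. Its lowest were TS/CYTO 50 at 1.80 with 1171 mm3 and TS/PD1/CYTO 59 at 1.94 with 2198 mm3. High values thus came from small tumors, although the smallest, TS/PD1/CYTO 52 at 180.8 mm3, was at 3.66. The slope was -0.61 ± 0.16 per doubling (adjusted p = 0.01897). The adjusted p was 0.011 to 0.088 over the fits that left out 1 tumor and 0.017 to 0.133 over the other settings, and the call was lost without tumor TS/PD1/CYTO 59 or TS/PD1/CYTO 60 and with the arm as a further term (-0.48). The count of 1 became 6 without CYTO 12, 5 without PD1/CYTO 38, 4 without TS/PD1/CYTO 52 and 2 without PD1 29 or PD1 30.

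The next chains missed the threshold. COL14A1 had a slope of -0.54 ± 0.18 (adjusted p = 0.05609), COL1A1 -0.50 ± 0.17 (0.06193) and COL3A1 -0.51 ± 0.18 (0.06376). COL16A1 had the opposite sign at 0.34 ± 0.12 (0.07261). COL1A1 ran from 3.09 in Isotype 01 to 7.53 in TS/PD1/CYTO 60, with 7.24 in PD1/CYTO 39. COL16A1 ran from 4.98 in PD1/CYTO 38 to 7.43 in CYTO 18, and its 4 highest tumors, CYTO 18, TS/CYTO 50, TS/CYTO 49 and TS/PD1/CYTO 59, had volumes of 1417, 1171, 1097 and 2198 mm3. COL4A1 at -0.04 ± 0.13 and COL4A2 at -0.10 ± 0.14 were near 0.

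Within the 14 RNAlater tumors, 4 of 22 collagen genes passed, where 9.92% of all genes did. COL12A1 was -0.81 ± 0.19 (adjusted p = 0.01739), COL14A1 -0.79 ± 0.22 (0.03513) and COL3A1 -0.77 ± 0.20 (0.02749), and COL16A1 rose by 0.56 ± 0.14 per doubling (0.01889). After quantile normalization of all 18 tumors, which moved the median slope of all genes to 0.00, COL16A1 was the 1 gene called at 0.43 (adjusted p = 0.0387), and COL12A1 was -0.46 (0.07632). In the 4 fresh-frozen tumors alone 0 of 18 passed, where 0.101% of all genes did, and COL12A1 was -0.27 ± 0.21 (adjusted p = 0.5201), COL14A1 -0.11 ± 0.20, COL3A1 -0.06 ± 0.13 and COL16A1 -0.06 ± 0.12. With 4 tumors these slopes have wide errors, and the difference from the RNAlater slopes was not tested.

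**Figure D3:**
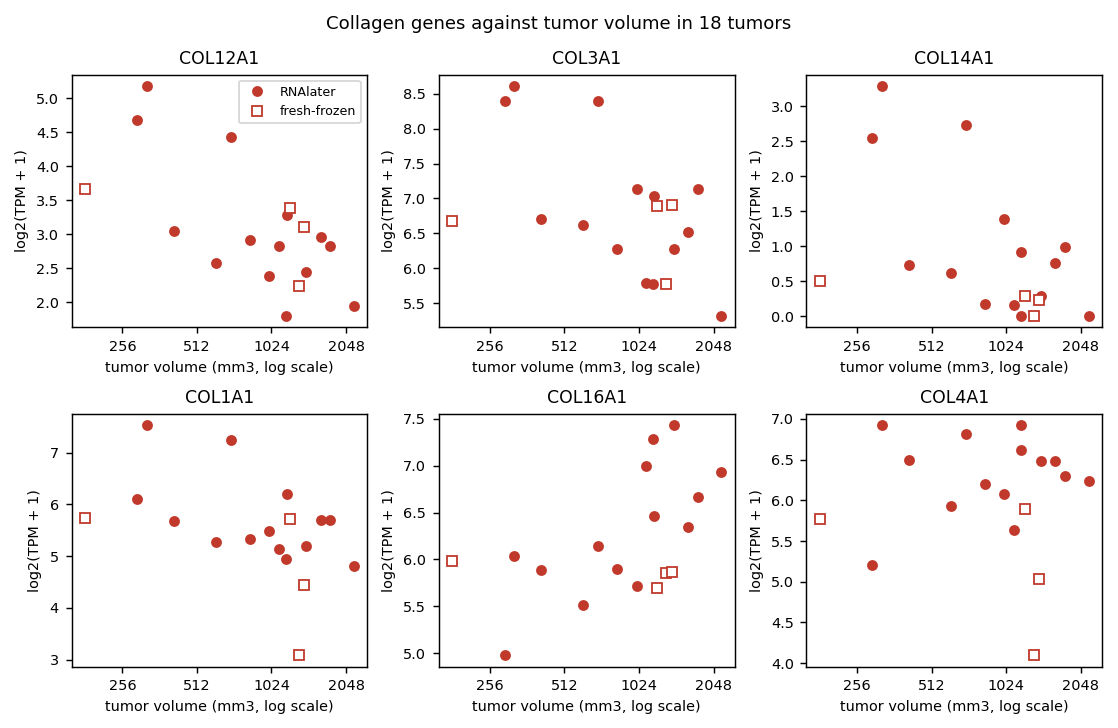
Log2(TPM + 1) of 6 collagen genes against tumor volume in mm3 on a log scale, with the 14 RNAlater tumors as filled circles and the 4 fresh-frozen tumors as open squares. COL12A1, COL3A1 and COL14A1 are highest in RNAlater tumors of 294.4 to 701.7 mm3, and COL16A1 is highest in tumors of 1097 to 2198 mm3.

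Genes around the chains fell in larger tumors in part. Those called were P4HB of 18 processing genes (-0.13), LOXL1 of 9 cleavage and cross-linking genes (-0.51), LUM (-0.86), OGN and SPARC of 17 other matrix proteins, MMP2 (-0.71), TIMP2 and TIMP3 of 13 degradation genes, and LAIR1, an inhibitory collagen receptor of immune cells (-0.69), of 6 receptors. No gene of these lists rose. Of the marker lists, 2 of 9 fibroblast, 6 of 8 macrophage and 4 of 6 T and B cell markers fell and 0 of 7 endothelial markers did. Their part in the collagen slopes was not tested.

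In spleens 5 of 21 collagen genes passed for volume, where 39.7% of all genes did, 510 rising and 3932 falling. COL8A2 (-0.30 ± 0.10), COL14A1 (-0.25 ± 0.09), COL27A1 (-0.23 ± 0.08) and COL12A1 (-0.18 ± 0.06) fell, and COL5A1 rose by 0.11 ± 0.04, with adjusted p from 0.03989 to 0.04759. COL8A2 was 2.67 in TS/PD1/CYTO 58 with a tumor of 175.1 mm3 and 0.08 in TS/PD1/CYTO 59 with 2198 mm3, but 0.51 in TS/PD1/CYTO 60 with 320.9 mm3 and 1.38 in Isotype 08 with 1623 mm3. These calls were fragile. There were 19 without PD1/CYTO 40, whose tumor was the smallest at 29.2 mm3, and 0 without a single spleen from a set of 8, namely TS/PD1/CYTO 59, PD1 30, Isotype 08, TS/PD1/CYTO 58, CYTO 18, PD1/CYTO 38, Isotype 10 and PD1 29. None was left without the 3 spleens high in pancreas genes. Quantile normalization moved the split over all genes to 1136 rising and 967 falling, with 1 collagen gene called. This was COL5A1, rising by 0.24 (adjusted p = 0.03805). COL14A1, COL8A2, COL27A1 and COL12A1 still fell but lost the call (adjusted p from 0.06097 to 0.07889). Of the genes around the chains 14 of 18 processing genes, 5 of 14 other matrix proteins and 5 of 11 degradation genes fell, as did 6 of 8 endothelial and 7 of 8 T and B cell markers, and their part in the collagen slopes was not tested.

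In day 23 nodes 0 of 32 collagen genes passed for volume, where 0% of all genes did. Of the 32 slopes 28 were positive, where 37.6% of all genes had a positive slope. The smallest p were for COL8A1 at 0.35 ± 0.13, COL16A1 at 0.19 and COL9A3 at 0.15 (adjusted p = 0.9899). In day 16 nodes 0 of 32 passed, again with 0% of all genes, led by COL4A5 at 0.90 ± 0.33, COL16A1 at 0.69 ± 0.29 and COL26A1 at -0.28. Without the 3 nodes that stand apart 6 passed, all rising with volume, where 7.47% of all genes passed. They were COL7A1 at 1.16 ± 0.25, COL17A1 at 0.93 ± 0.24, COL16A1 at 0.74 ± 0.18, COL15A1 at 0.72 ± 0.15, COL9A3 at 0.63 ± 0.19 and COL6A2 at 0.43 ± 0.12. In these 15 nodes 3 of 6 adipocyte markers also rose with volume, with a median slope of 1.55, as did 2 of 3 keratinocyte markers (1.57), 5 of 8 endothelial markers (0.42), 5 of 8 smooth muscle and pericyte markers (0.44) and 3 of 9 fibroblast markers (0.27). Their summed TPM ran from 223.7 to 8979 for adipocyte, from 3.46 to 81.1 for keratinocyte, from 193.9 to 355.0 for endothelial, from 191.4 to 485.3 for smooth muscle and pericyte and from 617.5 to 1278 for fibroblast markers. With the adipocyte marker mean as covariate 0 of 32 collagen genes passed in the 15 nodes, where 0% of all genes did, with a collagen median of 0.13 in place of 0.28, COL15A1 at 0.23 ± 0.09 and COL7A1 at 0.42 ± 0.21 (adjusted p = 0.9999), and none passed in all 18. Since adipocyte markers themselves rose with volume in the 15 nodes, this covariate cannot tell the part of fat from that of volume. The part of the other markers was not tested.

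The slopes were then compared between tissues at day 23. Between tumors and nodes 5 of 34 collagen genes differed, where 8.03% of all genes did. The differences were -0.75 ± 0.18 for COL12A1 (adjusted p = 0.005861), -0.74 ± 0.19 for COL3A1 (0.01172), -0.67 ± 0.19 for COL5A2 (0.02313), -0.58 ± 0.18 for COL14A1 (0.03507) and -0.50 ± 0.16 for COL8A1 (0.04). Between tumors and spleens COL16A1 alone differed, by 0.51 ± 0.16 (0.03957), where 6.3% of all genes did. Between spleens and nodes 0 of 34 did, where 0.251% of all genes did. An unadjusted p under 0.05 was found there for 15 collagen genes and for 3105 of all 12761 genes. The batch was not a term in these fits, although the tumors were of batches 2 and 3, and its part in the differences was not tested. The total of 6 became 26 without spleen PD1/CYTO 40, 10 without tumor TS/PD1/CYTO 52, 3 without tumor CYTO 18, 2 without tumor TS/PD1/CYTO 59 and 1 without tumor TS/PD1/CYTO 60.

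Treatment was asked in each tissue as the effects of PD1, CYTO and TS and as each of the 5 arms against Isotype. In tumors 0 of 22 collagen genes passed in any of these 8 comparisons, where 0% of all genes passed. The smallest p among the collagen genes for PD1 were for COL20A1 at -0.38, COL12A1 at 0.91 ± 0.37 and COL14A1 at 0.70 (adjusted p = 0.6662). Tumor COL12A1 was 2.24, 2.39 and 2.82 in Isotype and 3.11, 4.68 and 4.43 in PD1/CYTO, with no overlap, but TS/PD1/CYTO ran from 1.94 to 5.18 and spanned nearly every other tumor. Tumor COL1A1 had arm means from 4.76 ± 1.45 in Isotype to 6.03 ± 1.38 in TS/PD1/CYTO (SD, n = 3), and tumor COL4A1 from 5.49 ± 1.21 in Isotype to 6.39 ± 0.67 in TS/CYTO, within the spread of the mice.

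The Isotype tumors included Isotype 01, which was fresh-frozen and held the lowest COL1A1 (3.09), COL4A1 (4.10) and summed collagen TPM (295.1) of all tumors. Fresh-frozen tumors were compared with RNAlater tumors for this reason. Of 22 collagen genes 1 passed, COL4A1 at -1.05 ± 0.32 (adjusted p = 0.04373), where 15% of all genes passed. COL4A2 was -1.04 (0.05593), and the median was -0.73 against -0.40 over all genes. An unadjusted p under 0.05 was found for 10 collagen genes, where 4467 of all 10913 genes had one. With RNA integrity as covariate COL4A1 was -1.13 ± 0.30 (adjusted p = 0.01811), and 9 collagen genes passed, all lower. The share of all genes is not given for this setting or for the fits without 1 tumor. These counts are therefore not results about collagens. Leaving out 1 tumor gave 12 without TS/PD1/CYTO 59, 8 without CYTO 12, 5 without PD1/CYTO 38, 2 without CYTO 18, CYTO 20, TS/CYTO 48 or TS/PD1/CYTO 52, and 0 without Isotype 01, Isotype 09, Isotype 10, PD1 28, PD1 29, PD1 30, PD1/CYTO 32, PD1/CYTO 39, TS/CYTO 50 or TS/PD1/CYTO 60.

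In spleens the PD1, CYTO and TS effects gave 0 of 21 collagen genes, where 0% of all genes passed. For CYTO all 21 differences were positive, where 81.9% of all genes were, with a median of 0.71 against 0.25 over all genes. Of the 21, 14 had an unadjusted p under 0.05, where 2488 of all 11184 genes did. The smallest adjusted p was 0.2193. Without spleen TS/PD1/CYTO 58 the 3 effects gave 6. Of the arms against Isotype, PD1/CYTO gave 13 of 21 collagen genes higher, where 25.5% of all genes passed. The median was 1.21 over the collagen genes and 0.54 over all genes. TS/PD1/CYTO gave 0, where 0.00894% of all genes passed, and PD1, CYTO and TS/CYTO gave 0, where 0% did.

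COL4A2 was 2.01, 2.42 and 2.42 in the Isotype spleens and 4.29, 4.51 and 3.13 in the PD1/CYTO spleens. The groups did not overlap, and the difference was 1.69 ± 0.42. COL1A1 was 1.33, 1.74 and 2.10 in Isotype and 3.95, 3.81 and 2.43 in PD1/CYTO, a difference of 1.67 ± 0.45, again without overlap and with PD1/CYTO 40 the lowest of its arm. The others were COL1A2 at 1.50, COL27A1 at 1.44, COL4A1 at 1.44, COL6A2 at 1.37, COL6A1 at 1.36, COL5A2 at 1.35, COL18A1 at 1.32, COL16A1 at 1.19, COL12A1 at 0.97, COL6A3 at 0.93 and COL3A1 at 0.89. All adjusted p lay between 0.04691 and 0.04939. COL14A1 at 1.34 ± 0.47 (adjusted p = 0.05012) and COL5A1 at 0.08 ± 0.28 did not pass. PD1/CYTO 38 and 39 were close to CYTO 20 (COL4A2 at 4.23) and TS/PD1/CYTO 58 (4.16).

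These calls sat at the edge of the threshold. None of the 13 was left after quantile normalization, after rescaling of the listed TPM, with RNA integrity or tumor volume as covariate or without the 3 spleens high in pancreas genes. None was left without any 1 of 11 single spleens, Isotype 08, Isotype 10, CYTO 19, PD1 28, PD1 29, PD1/CYTO 38, PD1/CYTO 39, TS/CYTO 48, TS/CYTO 49, TS/CYTO 50 and TS/PD1/CYTO 60. The collagen median remained positive at 0.52 after quantile normalization, where that of all genes was 0.03, and at 1.05 after rescaling, where it was 0.34. In the same comparison 7 of 18 processing genes were higher (SERPINH1 at 1.04, PLOD1 at 1.37), as were the basement membrane genes LAMC1, HSPG2 and NID1 among 14 other matrix proteins, 1 of 11 degradation genes (MMP14), 1 of 7 receptors (ITGB1) and 0 of 9 cleavage genes. Endothelial markers were higher in 5 of 8, smooth muscle and pericyte markers in 2 of 7, and fibroblast markers in 1 of 7, and the pancreas markers had a median of -4.51 with 0 of 8 called. The T and B cell markers had a median of 0.96 and the macrophage markers of 0.88, with 0 of 8 called in each. In each 8 of 8 were positive, where 86.9% of all genes were. Summed TPM of the T and B cell markers was 611.2 to 1063 in Isotype and 1279 to 1702 in PD1/CYTO spleens, and that of the macrophage markers 519.4 to 840.0 and 1001 to 1208, with no overlap in either. The part of these in the result was not tested.

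**Figure D4:**
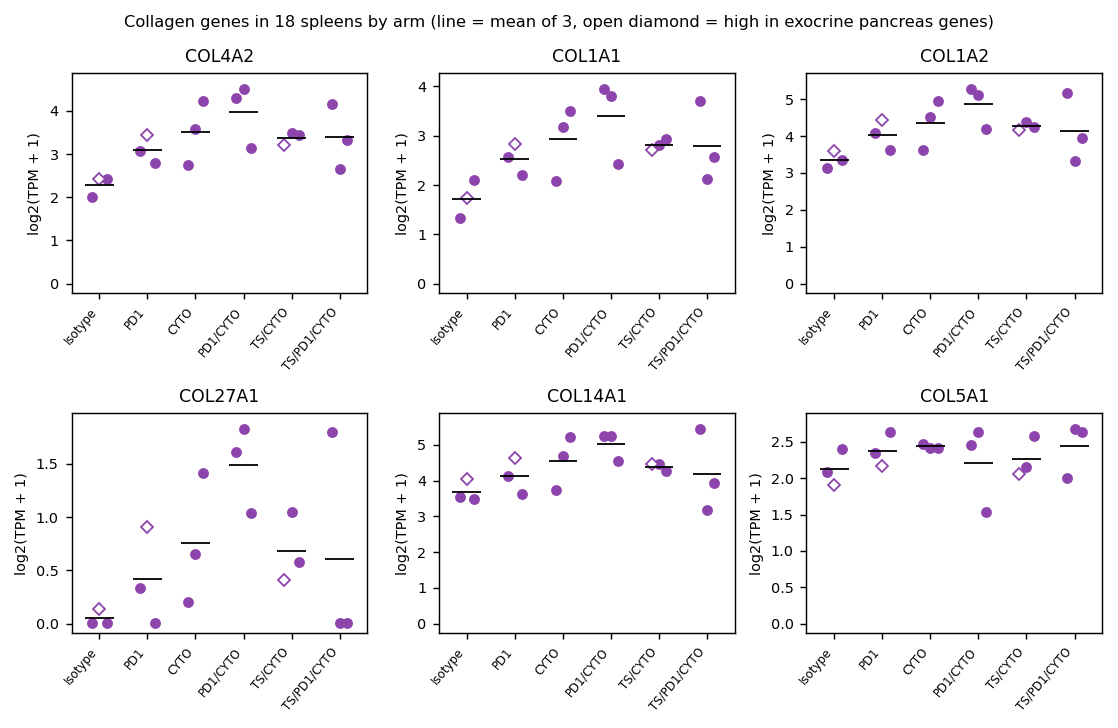
Log2(TPM + 1) of 6 collagen genes in each of 18 spleens by arm, with the mean of 3 as a line and the 3 spleens high in exocrine pancreas genes as open diamonds. For COL4A2, COL1A1 and COL1A2 the 3 PD1/CYTO spleens lie above the 3 Isotype spleens, while COL5A1 overlaps.

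In nodes no collagen gene passed for treatment. At day 16 it was 0 of 32 in all 8 comparisons, where 0% of all genes passed, and 0 of 32 without the 3 nodes that stand apart. At day 23 it was 0 of 32 in all 8, where the share of all genes was 0.0164% for PD1, 0.0656% for CYTO, 0.00819% for TS, 0.0492% for PD1 against Isotype, 0.00819% for PD1/CYTO and for TS/PD1/CYTO against Isotype, and 0% for CYTO and for TS/CYTO against Isotype. Node COL12A1 at day 23 was 1.92, 2.01 and 2.51 in Isotype and 4.95, 3.26 and 2.30 in CYTO, and node CYTO 18 held the highest value, with COL1A1 at 7.82 and COL8A2 at 1.33, where no other node was above the floor for COL8A2. The difference was 1.36 ± 0.52 (adjusted p = 0.3375). With the adipocyte marker mean as covariate 9 collagen genes were higher in CYTO than Isotype, where 8.26% of all genes passed, among them COL12A1 at 2.03 ± 0.53 (0.03751) and COL15A1 at 1.24 ± 0.27 (0.0321).

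Between day 16 and day 23 of the nodes, 0 of 33 collagen genes passed, where 0% of all 12596 genes did and 2227 genes, 5 of them collagens, had an unadjusted p under 0.05. The median was -0.30 over the collagen genes and -0.03 over all genes. COL5A3, a minor fibrillar chain, ran from 1.78 to 6.63 with a median of 3.63 at day 16 and from 1.38 to 4.48 with a median of 2.44 at day 23. The ranges overlapped, and the difference was -1.05 ± 0.37 (adjusted p = 0.1935). COL4A5 was -0.80 ± 0.31 and COL18A1 -0.49 ± 0.21. Without the 3 nodes that stand apart it was 0 of 32, where 2.05% of all genes passed, with a collagen median of -0.06 and COL5A3 at -0.61. The 6 adipocyte markers had a median of -1.59, and with their mean as covariate the collagen median was 0.07. The part of fat in the collagen differences between the days was not tested. The interaction of day with PD1 gave 0 of 33 collagen genes, where 0.0556% of all genes passed, and those with CYTO and TS gave 0, where 0% did.

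**Figure D5:**
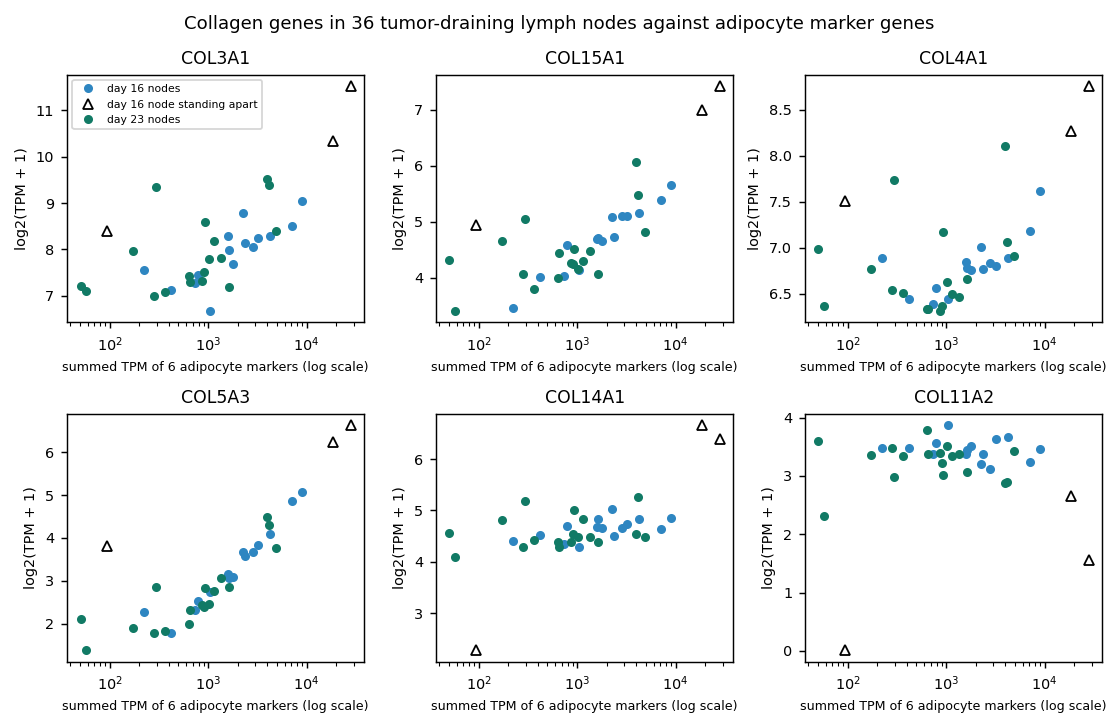
Log2(TPM + 1) of 6 collagen genes in 36 tumor-draining lymph nodes against the summed TPM of 6 adipocyte markers on a log scale, in blue for day 16 and green for day 23, with the 3 day 16 nodes that stand apart as triangles. The nodes at 18580 and 28210 adipocyte TPM hold the highest COL3A1, COL15A1, COL5A3 and COL14A1, and the triangle at the low end is node PD1/CYTO 22, with COL14A1 at 2.28 and COL11A2 at the floor. The node at 18580, TS/PD1/CYTO 34, also held 18550 TPM of skeletal muscle markers.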

How the data were processed

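Per the labels' protocols, total RNA was made into paired-end stranded libraries with polyA enrichment. Per the submitters' processing notes, bcl2fastq 2.20, STAR and RSEM 1.3.0 were used with mm10, and the annotation release is not given in the sources used here. The authors deposited 1 table of log2 values whose lowest steps are those of log2(TPM + 1), 1 column per library and no pooling. TPM were scaled by the authors over more genes than the 16835 listed, so listed TPM sum to less than the whole. Columns were matched to samples by name, with 0 left unmapped, and no 2 libraries held identical values (highest correlation 0.995).

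Python 3.11.15 with pandas 2.3.3 and numpy 2.4.6 was used for description, and matplotlib 3.10.9 for plots. Differences were tested with limma 3.58.1 in R 4.3.3 (trend and robust variance) applied to the table as deposited, for genes that exceeded the floor of 0.01 in at least 3 fitted libraries, and p-values were adjusted by Benjamini and Hochberg over all genes of a comparison at 0.05. Errors after a test are standard errors. A difference on the log2(TPM + 1) scale understates the change of low genes. The PD1 effect was the mean of 3 matched arm differences and the CYTO and TS effects of 2 each, and tumor fits had the batch as a term. Tissue contrasts used 54 day 23 libraries and the day contrast 36 nodes. The fits were tested on simulated data.

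The collagen genes and the gene lists were chosen with earlier results of these data known. Named genes were COL1A1, COL1A2, COL3A1, COL4A1, COL4A2, COL5A1, COL6A1, COL12A1, COL15A1 and COL18A1, up to 8 members called with the largest difference per comparison, the 3 of smallest p where none was called, and of each other list up to 4 of smallest p. Others, such as COL8A2, COL23A1 and COL24A1, were named after their values were seen. The mouse numbers mark the same animal at day 23, for 14 mice with all 3 tissues and 18 with spleen and node. Same-mouse deviations had median correlations of 0.029 (tumor and node), 0.084 (tumor and spleen) and -0.020 (spleen and node). Alternatives were quantile normalization, rescaled listed TPM, no filter, a stricter filter, a pseudocount of 0.1, RNA integrity (1 library lacked it), volume or arm as further terms, the mouse as block, 1 batch only and each library left out. Leaving out the 3 nodes and the 3 spleens that stand apart, the adipocyte covariate alone and with the 3 nodes left out, and the slope in batch 2 tumors alone were chosen after seeing the data.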

Additional observations from a re-analysis of the deposited data

Results flagged for a closer look

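Slopes per doubling of tumor volume that differed between tissues of the same day, by a test of the difference itself, were singled out. COL12A1 (-0.75), COL3A1 (-0.74), COL5A2 (-0.67), COL14A1 (-0.58) and COL8A1 (-0.50) had a lower slope in tumors than in nodes, and COL16A1 had a higher slope in tumors than in spleens (0.51). COL12A1 passed in all 54 fits that left out 1 library (adjusted p of 0.002 to 0.039), and COL3A1 lost its call in 1 of 54, COL5A2 in 4, COL14A1 in 6, COL8A1 in 11 and COL16A1 in 13. Nodes were all batch 2 and spleens all batch 4, while tumors were of batches 2 and 3. Batch was not a term in these fits, and its part in the differences was not tested.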

How the results depend on the processing

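For 111 called results of single collagen genes, 830 alternative values were computed besides those without 1 library. Of these 683 stayed past the threshold with their direction, 145 lost the call and 2 changed sign, both under quantile normalization in tumors against nodes, where COL4A2 became 0.025 and COL5A3 0.294. Of 5274 values without 1 library 4986 kept the call and 288 lost it. Genes not called could also change sign. COL14A1 in spleens minus nodes went from -0.25 to 0.73, past the threshold, after quantile normalization and to 0.38 after rescaling, and COL5A1 in tumors minus nodes from -0.03 to 0.63, past the threshold, after quantile normalization and to 0.10 with the mouse as replicate block. The cause was not tested. With the mouse as replicate block the 3 tissue comparisons gave 27, 22 and 31 collagen genes (31, 23 and 31 without it), and no other collagen call changed than those given above. The stricter filter gave 7, 7 and 7, since fewer genes were tested, and leaving out 1 library gave 29 to 32, 22 to 24 and 31 to 32.

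For spleens against Isotype, where 13 were called, quantile normalization, rescaling, no filter, RNA integrity, tumor volume and leaving out the 3 spleens each gave 0, the stricter filter 2, and leaving out 1 spleen 0 to 17; for the 3 treatment effects in spleens that range was 0 to 6. For volume in spleens (5 called) quantile normalization gave 1, rescaling 0, no filter 0, the stricter filter 1, RNA integrity 8, the arm 0 and leaving out the 3 spleens 0, with 0 to 19 without 1 spleen. For volume in tumors (1 called) the stricter filter, the arm and batch 2 alone gave 0, batch 3 alone 4, and leaving out 1 tumor 0 to 6. For slope differences (6 called) no filter gave 3, the stricter filter 2, arm by tissue 3, and leaving out 1 library 1 to 26. For fresh-frozen against RNAlater tumors (1 called) quantile normalization, rescaling and no filter gave 0, the stricter filter, a pseudocount of 0.1 and tumor volume 2, RNA integrity 9, and leaving out 1 tumor 0 to 12. For volume in day 16 nodes leaving out the 3 nodes gave 6 (0 with the adipocyte covariate as well), and for arms in day 23 nodes the adipocyte covariate gave 9. In these cases the cause was not tested. The remaining counts were 0 throughout, whichever library was left out. Depth is unknown, so a gene at the floor is not shown to be absent, and 3 mice per arm limit what could be detected.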
